A study of Drosophila melanogaster with 12 samples.

Results

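The MCM genes code for the replicative helicase of the cell. Their messages were followed at day 12 and day 2 in Drosophila melanogaster follicles of stage 14, which are the mature egg chambers at the end of oogenesis. The set was chosen by symbol from the table of linear RNA: Mcm2, Mcm3, dpa (the Mcm4 subunit), Mcm5, Mcm6, Mcm7 and Mcm10. All 7 had a value, out of 5954 genes with 10162 listed transcripts, and each had 1 listed transcript, so that a gene's summed value is the value of that transcript. All samples came from ovaries of Oregon R flies, a wild-type laboratory strain, with no other allele or treatment named in the labels. The linear RNA libraries are 3 at day 12 and 3 at day 2, numbered as biological replicates. The sources used here do not give the point from which the days were counted, any pooling of animals or the depth of the libraries. Each level is 1 value per day in the authors' own abundance unit, read here as their mean over the 3 libraries of that day. Values of single libraries were not used, so no spread can be set beside a mean and it cannot be said whether the libraries of the 2 days overlap.

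The Mcm2 to Mcm7 proteins form a ring of different subunits that is loaded in inactive form around DNA at replication origins by the origin recognition complex (ORC), Cdc6 and Cdt1. At the start of S phase, Cdc45 and the GINS complex join the ring, and the assembled CMG helicase (Cdc45, MCM, GINS) unwinds DNA at the fork. Mcm10 is not part of the ring and acts when the helicase is activated. The stage 14 oocyte is held in meiosis, and the rapid S phases of the early embryo that follow run on proteins and messages laid down by the mother, before the embryo transcribes most of its own genes.

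All 6 subunits of the MCM2-7 ring had a lower mean at day 12, by small amounts, and Mcm10 had a higher one. The log2 ratio of day 12 over day 2 ran from -0.42 for Mcm3 to -0.09 for Mcm7 among the subunits, with a median of -0.21. It was 0.11 for Mcm10. No sign turned when the days were scaled to equal totals or medians. Both scalings lower every ratio, so only that of Mcm10 could have turned. The summed level of the 6 subunits was 667.6 at day 12 and 776.2 at day 2, a ratio of 0.860. None of the 7 was called here, that is, had an adjusted p under 0.05 in the authors' deposited table. By this measure 0.177% of all transcripts were called in either direction. The authors' own significance mark instead coincides with an unadjusted p under 0.05 for all 10162 transcripts. By unadjusted p at the same threshold, Mcm2, Mcm3, Mcm5 and Mcm7 were lower at day 12 in the authors' deposited table, against a background of 6.56% of all transcripts lower by that measure. Mcm10 was higher by it in the authors' deposited table, against a background of 9.47% higher. Counted by the most abundant transcript of each gene, as for the other lists below, the backgrounds were 9.07% lower and 13.5% higher. For comparison, 41.5% of all genes had a lower sum at day 12, and the median log2 ratio of all genes was 0.04.

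**Figure D1:**
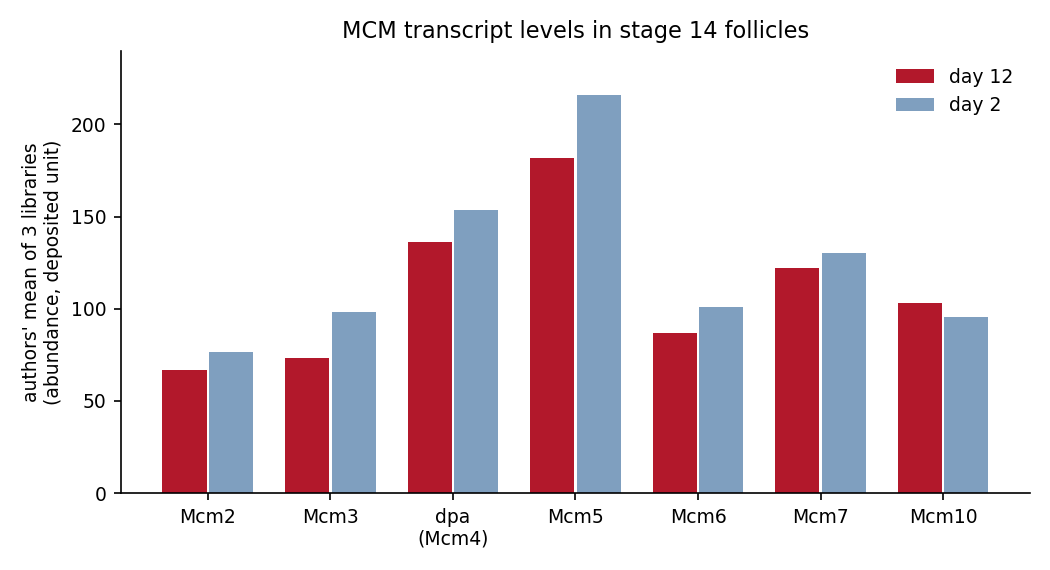
Level of each MCM gene (vertical axis, the authors' mean over 3 libraries in the deposited abundance unit) at day 12 (red, left bar) and day 2 (blue, right bar), with no error bars because the values of single libraries were not used. The day 12 bar is the lower one for the 6 ring subunits and the higher one for Mcm10, at 103 against 95.3.

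Mcm3 and Mcm5, which are neighbours in the ring, had the lowest log2 ratios of the 7 genes. Mcm3, the subunit through which the ring docks on ORC and Cdc6 in yeast, was at 73.5 at day 12 and 98.4 at day 2. Its log2 ratio was -0.42. The authors' deposited table gave p = 0.0155 unadjusted and p = 0.200 adjusted. Of all genes, 7.17% had a lower log2 ratio than Mcm3. Mcm5, which together with Mcm2 forms the gate through which DNA enters the ring and for which a Drosophila allele with a defect in meiotic recombination is known, was at 182 at day 12 and 216 at day 2. Its log2 ratio was -0.25. The authors' deposited table gave p = 0.0137 unadjusted and p = 0.190 adjusted. The sum of Mcm3 and Mcm5 was 255 at day 12, against 314 at day 2, a log2 ratio of -0.30.

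Mcm2, the other side of the gate and a carrier of histones at the fork in yeast and mammals, had the lowest level of the 7 on both days, at 66.7 at day 12 and 76.8 at day 2. Its log2 ratio was -0.20. The authors' deposited table gave p = 0.00703 unadjusted and p = 0.160 adjusted.

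The dpa, Mcm6 and Mcm7 subunits, which in yeast and mammals also form a subcomplex with helicase activity of its own, had a sum of 345 at day 12, against 385 at day 2, a log2 ratio of -0.16. The dpa message stood at 136 at day 12 and 154 at day 2 (log2 ratio -0.18; in the authors' deposited table p = 0.0621 unadjusted and 0.340 adjusted). Mcm6, of which a female-sterile Drosophila allele with thin eggshells and reduced chorion gene amplification is known, was at 86.9 at day 12 and 101 at day 2 (log2 ratio -0.22; in the authors' deposited table p = 0.100 unadjusted and 0.418 adjusted). The log2 ratios of these 2 genes were close to that of Mcm2, yet neither passed the unadjusted threshold, which does not show that their levels were equal on both days. Mcm7, the subunit that is ubiquitylated when forks terminate in yeast and frog, was at 122 at day 12 and 130 at day 2. Its log2 ratio of -0.09 was the smallest in size among the subunits, and the authors' deposited table gave it p = 0.00805 unadjusted and p = 0.164 adjusted. The order of the p-values was thus not the order of the ratios.

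Mcm10, which in Drosophila also binds heterochromatin protein 1, was at 103 at day 12 and 95.3 at day 2. Its log2 ratio was 0.11, and the authors' deposited table gave it the lowest p of the 7 genes, 0.00185 unadjusted and 0.116 adjusted. It stood at 0.987 times the median ring subunit at day 12 and at 0.824 times that median at day 2. The difference between Mcm10 and the subunits was not tested, since it would need the single libraries.

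**Figure D2:**
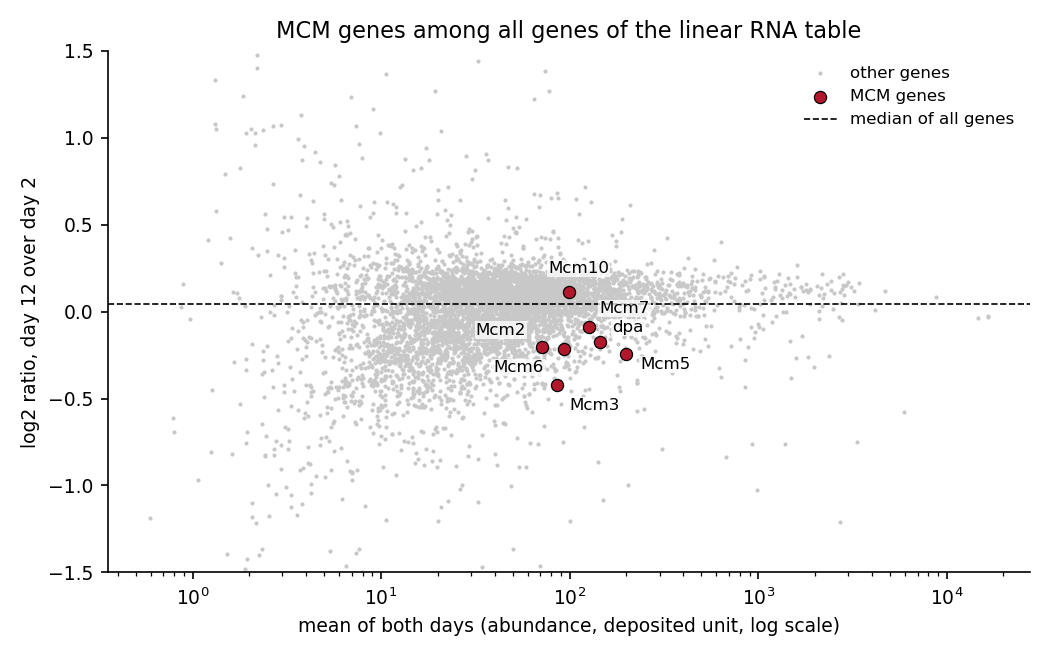
Log2 ratio of gene sums, day 12 over day 2 (vertical axis), against the mean of both days in the deposited abundance unit (horizontal axis, log scale) for 5859 genes with a log2 ratio between -1.5 and 1.5 (grey points), with the MCM genes in red. The 6 ring subunits lie below the dashed median of all genes at 0.04, and Mcm10 lies above it.

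By abundance the MCM messages stood in the upper part of the table. Of all genes, 72.7% had a lower mean of both days than Mcm2, the lowest of the set, and 92.5% a lower one than Mcm5, the highest. Whether the unit is FPKM or TPM is not stated. StringTie, which the submitters' processing notes name, reports abundance per transcript length, and levels of different genes are set side by side here on that reading. Mcm5 was the most abundant of the 7 on both days, followed by dpa and Mcm7. The next places differed between the days: Mcm10 was number 4 at day 12 and number 6 at day 2, Mcm6 number 5 and number 4, and Mcm3 number 6 and number 5. Without a spread it cannot be said which neighbours in this order differ.

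The ring holds its subunits in equal number, while their messages did not stand at equal levels. The highest subunit exceeded the lowest 2.73-fold at day 12 and 2.81-fold at day 2. Mcm5 made up 27.3% of the summed subunit level at day 12 and 27.8% at day 2, and Mcm2 made up 9.98% and 9.89%. The largest shifts of share were in Mcm3, at 11.0% at day 12 and 12.7% at day 2, and in Mcm7, at 18.3% at day 12 and 16.8% at day 2. The level of Mcm3 was 0.404 times that of Mcm5 at day 12 and 0.456 times at day 2. The shares of dpa were 20.4% at day 12 and 19.8% at day 2, and Mcm6 held 13.0% on both days.

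**Figure D3:**
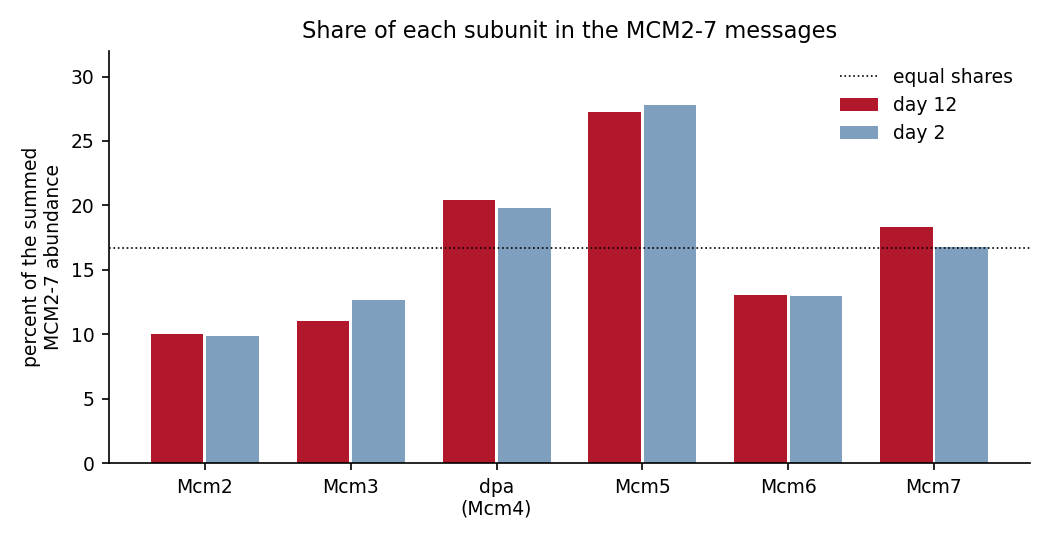
Share of each ring subunit in the summed MCM2-7 level (vertical axis, percent) at day 12 (red, left bar) and day 2 (blue, right bar), with a dotted line at equal shares. Mcm5 holds the largest share, 27.3% at day 12 and 27.8% at day 2, and Mcm2 the smallest, 9.98% and 9.89%.

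The 7 genes share a compact structure and are spread over 5 chromosome arms. In dm6 coordinates, Mcm2 (FBgn0014861) lies on the plus strand of 3R from 8264970 to 8267924 with 2 exons. Mcm5 (FBgn0017577) lies on the plus strand of the same arm from 10788524 to 10791150 with 4 exons. Mcm3 (FBgn0284442, 3 exons) and Mcm6 (FBgn0025815, 1 exon) lie on the plus strand of X, from 5323855 to 5326738 and from 6674387 to 6677176. Mcm7 (FBgn0020633) lies on the plus strand of 3L from 8891596 to 8894310 with 5 exons, and Mcm10 (FBgn0032929) on the plus strand of 2L from 21179933 to 21182812 with 2 exons. The dpa gene (FBgn0015929) lies on the minus strand of 2R from 7496702 to 7500145, and its listed transcript has 7 exons. The transcripts are 2451 nt (Mcm7) to 2898 nt (Mcm2) long. Their 3′ untranslated regions run from 99 nt in dpa to 217 nt in Mcm6 among the subunits, and to 391 nt in Mcm10. For Mcm3 and dpa, 1 of 2 annotated transcripts was analysed here.

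Overlapping genes could add to some of these values, because the sources used here do not give the strandedness of the libraries. The span of asRNA:CR45871, an antisense RNA gene, covers 2003 nt of the exons of Mcm7, and its own level was 12.1 at day 12 and 13.4 at day 2. CG3309 on the opposite strand covers 64 nt of the exons of Mcm3 and was at 17.2 at day 12 and 21.7 at day 2. The receptor gene Ret on the opposite strand covers 367 nt of Mcm10, with no level of its own analysed here. The other 4 genes overlap no annotated gene.

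Log2 ratios over all annotated transcripts moved with length and level. With the transcripts cut into 4 bins of equal size by length, the bin from 1901 to 3027 nt, which holds all 7 MCM transcripts, had 45.0% lower at day 12 and a median log2 ratio of 0.04. In the longest bin 56.5% were lower, with a median of -0.08, and in the shortest 31.7%, with a median of 0.08. By abundance all 7 fall in the highest of 4 bins, of which 27.9% were lower at day 12, with a median log2 ratio of 0.08. The part of length and level in the MCM ratios was not tested.

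The labelled tissue was checked against its markers. All 8 oocyte and germline markers looked for had a value, 6 of them higher and 2 (vas and orb) lower at day 12, and summed to 4762 at day 12 and 4268 at day 2. CycB alone made up 1900 of the sum at day 12 and 1702 at day 2. The value of orb is itself a sum over 3 transcripts assembled by the authors. The most abundant of these was higher at day 12, at 14.7 against 12.3 at day 2. Of 7 markers of the follicle cells of mature follicles, Ilp8 and Cp15 had a value, and they went opposite ways. Ilp8 was at 80.1 at day 12 and 50.1 at day 2. For Cp15, a chorion gene, the level was 20.8 at day 12 and 254 at day 2, so that the sum of 101 at day 12 and 304 at day 2 follows Cp15. Of 10 genes listed here as markers of earlier follicle cells, the 3 yolk protein genes had a value, and summed to 2.43 at day 12 and 21.2 at day 2. Which cells these messages came from cannot be told from these values. Their levels were low: 2.65% of all genes had a lower mean of both days than Yp2, and 3.91% than Yp1. None of these follicle cell genes was called, with adjusted p in the authors' deposited table from 0.129 for Cp15 to 0.796 for the main Yp3 transcript. The authors' deposited table put Cp15, Yp1 and Yp2 under 0.05 before adjustment, all lower at day 12. Ilp8 and Yp3 did not pass by their most abundant transcript. The germline markers osk and CycB also passed that threshold, both higher at day 12. The adjusted value of Cp15 was below that of every ring subunit and above that of Mcm10. Follicle cells replicate DNA in endocycles and during chorion gene amplification before stage 14, so their markers are given here beside the MCM ratios, and their part in these ratios was not tested. In whole follicles, fewer cells of a type and less RNA per cell cannot be told apart. None of the 6 muscle, 4 blood cell and 4 fat body markers had a value analysed here.

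The 3 genes that load the ring together with ORC, or hold loading back, each had a higher mean at day 12. The Cdt1 homologue dup, which brings the ring to the origin, was at 17.6 at day 12 and 16.6 at day 2. Cdc6 was at 45.6 at day 12 and 41.7 at day 2, and geminin, the inhibitor of Cdt1, at 48.0 and 41.7. In the authors' deposited table their unadjusted p ran from 0.123 for Cdc6 to 0.503 for the main dup transcript. The median ring subunit was 5.95 times the level of dup at day 12 and 6.96 times at day 2.

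Of the 6 ORC genes, 5 had a lower mean at day 12, with a median log2 ratio of -0.07. Orc6, the smallest subunit, was at 64.3 at day 12 and 80.6 at day 2, and was alone among them in passing 0.05 before adjustment, since the authors' deposited table gave p = 0.00332 unadjusted and p = 0.132 adjusted. Of all genes, 9.07% were lower and 13.5% higher at that threshold by their most abundant transcript. Orc4 was at 74.5 at day 12 and 81.3 at day 2. The 6 ORC genes had a median level of 61.0 at day 12 and 61.7 at day 2, so that the median ring subunit stood 1.72-fold above it at day 12 and 1.88-fold at day 2.

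Of the 11 subunits of the CMG helicase, 8 were lower at day 12 in the mean. Besides the ring these were CDC45L, the Cdc45 homologue, at 70.7 at day 12 and 79.2 at day 2, and Sld5 of the GINS complex, at 8.99 and 11.8. For Sld5 the authors' deposited table gave p = 0.0201 unadjusted and p = 0.217 adjusted. The other GINS genes Psf1, Psf2 and Psf3 were higher in the mean, with log2 ratios of 0.78, 0.08 and 0.04, of which the one of Psf3 turns below 0 on scaling to equal medians, and no low p. Psf1 stood at only 7.52 at day 12 and 4.39 at day 2. The median of the 4 GINS genes was 28.5 at day 12 and 28.6 at day 2, below every ring subunit.

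In the list of GINS, Cdc45 and helicase activation, 6 of 11 genes were lower at day 12, with a median log2 ratio of -0.16. Unadjusted p-values under 0.05 went to 3 of them in the authors' deposited table, all lower, against a background of 9.07% of genes lower at that threshold by their most abundant transcript. Besides Sld5 these were RecQ4, a helicase needed for origin firing, at 45.9 at day 12 and 53.3 at day 2, and mus101, the TopBP1 homologue, at 24.4 and 33.5. The log2 ratio of mus101 was -0.46. The authors' deposited table gave p = 0.0107 unadjusted and p = 0.182 adjusted.

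Of 11 genes of the replicative polymerases, 7 were lower at day 12, with a median log2 ratio of -0.08. In the authors' deposited table, an unadjusted p under 0.05 was given to Pol32 and CG12018 of polymerase delta and to DNApol-alpha50 and DNApol-alpha180 of the primase-polymerase alpha complex, with log2 ratios of -0.29, -0.30, 0.76 and 0.03. Over all genes 9.07% were lower and 13.5% higher at that threshold. The most abundant genes of this list, Chrac-14 and DNApol-alpha73, had log2 ratios of 0.11 and -0.22.

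Of 20 genes of the sliding clamp, its loader, the single-strand binding protein RPA and fork factors, 7 were lower at day 12, with a median log2 ratio of 0.04. When the days were scaled to a median log2 ratio of 0 over all transcripts, 11 were lower and the median was -0.0102, and with the most abundant transcript of each gene the median was 0.0643. Ctf4, which ties the CMG helicase to polymerase alpha, had the same log2 ratio as Mcm3 to 2 decimals, -0.42, and was at 63.0 at day 12 and 84.2 at day 2 (in the authors' deposited table p = 0.0249 unadjusted and 0.238 adjusted). The authors' deposited table also put RfC38, CG8142, RpA-70 and elg1 under 0.05 before adjustment, with log2 ratios of -0.03, -0.13, 0.11 and 0.02. With Ctf4 these are 3 lower and 2 higher genes of 20, where 9.07% of all genes were lower and 13.5% higher at that threshold. The clamp PCNA, the most abundant of the list, was at 354 at day 12 and 335 at day 2. Its level exceeded that of the median ring subunit, which was 0.295 times as high at day 12 and 0.345 times at day 2. Of the 6 genes of nucleotide supply, RnrL and Ts were lower, with log2 ratios of -0.03 and -0.07. The most abundant ones, dUTPase and RnrS, had 0.05 and 0.15. RnrL and RnrS, the subunits of ribonucleotide reductase, were under 0.05 before adjustment in the authors' deposited table, 1 lower and 1 higher, beside the same shares of all genes. For RnrS this holds for its most abundant transcript only, at 200 at day 12 and 31.5 at day 2. Its other transcripts had an unadjusted p of 0.312 or more in the authors' deposited table, so the p is not one of the RnrS sum.

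Of 16 S phase regulators, 13 were higher at day 12, with a median log2 ratio of 0.08. On scaling to a median log2 ratio of 0 over all transcripts, 5 instead of 3 were lower and the median was 0.0384. In the authors' deposited table, 4 were under 0.05 before adjustment and all of these were higher, against a background of 13.5% of genes higher at that threshold. These were E2f2, an E2F factor that represses replication genes, twe, the meiotic Cdc25 phosphatase, Cdk2, and mus304, the ATRIP homologue of the replication checkpoint, with log2 ratios of 0.21, 0.18, 0.15 and 0.16. The most abundant, grp of the Chk1 kinase and gnu of the Pan gu kinase, had log2 ratios of 0.11 and 0.13.

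Over the 75 measured genes of these other replication lists, 31 were lower at day 12, which is 41.3%, and the median log2 ratio was 0.03, against 41 lower and a median of -0.0131 on scaling to equal medians. That scaling also turns the small positive ratios of DNApol-alpha180 and elg1 below 0. None was called here by adjusted p, of which the lowest in the authors' deposited table was 0.0936 for twe. By their most abundant transcript 0.218% of all genes were called. In the authors' deposited table, 10 lower and 9 higher ones of the 75 were under 0.05 before adjustment. Over all genes 540 lower and 802 higher ones were, which is 9.07% and 13.5%. The lower ones were thus the more frequent among the 75 and the less frequent over all genes, which was not tested. Among the 75, 22 had a log2 ratio below that of Mcm7, and 3 one at or below that of Mcm3. The difference between the ring and these lists was not tested. The related genes rec, the Mcm8 homologue of meiotic crossing over, and CG3430, which stands with it in a list of 2, were at 8.35 and 18.5 at day 12 and at 9.76 and 17.4 at day 2. The authors' deposited table gave them p = 0.0830 and p = 0.809 unadjusted.

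**Figure D4:**
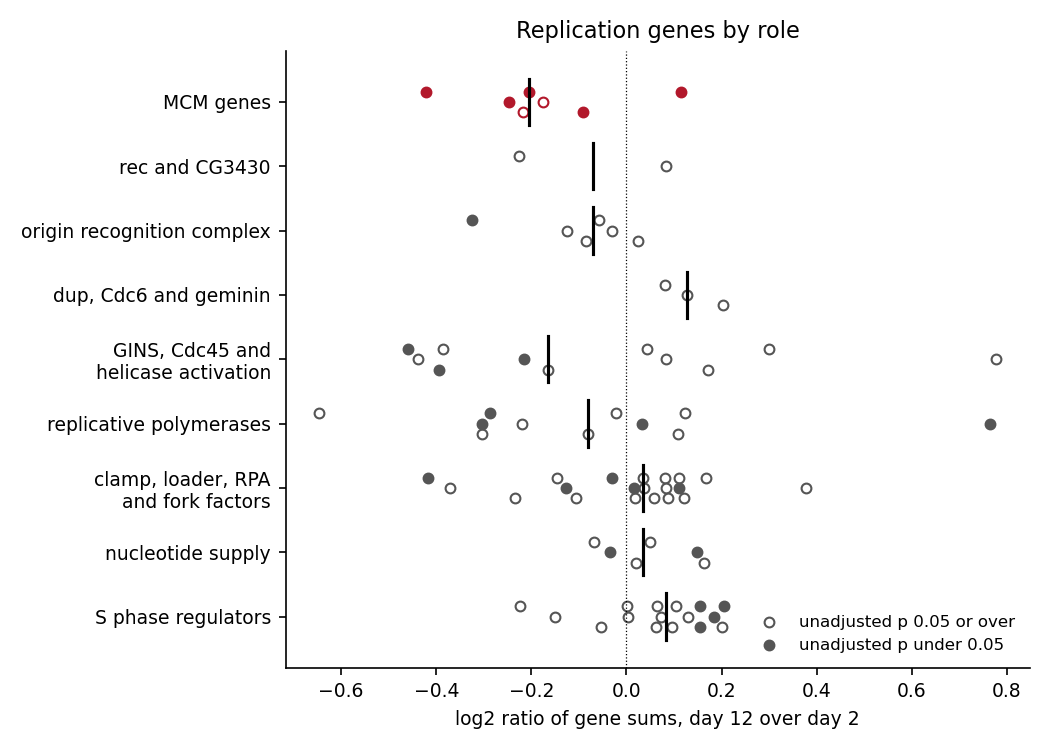
Log2 ratio of gene sums, day 12 over day 2 (horizontal axis), for each gene of the replication lists (rows), with a black bar at each list's median and filled points where the authors' unadjusted p of the most abundant transcript was under 0.05. The median lies at -0.20 for the MCM genes, 0.13 for dup, Cdc6 and geminin, and 0.08 for the S phase regulators.

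The genes of the whole table whose pair of levels lay nearest to that of the median ring subunit were CG34200, Rpn13 and CG5590, by distance on the log2 scale over the 2 conditions. CG34200 was at 103 at day 12 and 114 at day 2, Rpn13 at 103 and 117 as the sum of 6 transcripts, and CG5590 at 102 and 112. With 2 conditions, such likeness says only that level and ratio were close.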

How the data were processed

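Linear RNA of stage 14 follicles was sequenced in 3 libraries per day. The submitters' processing notes name build dm6 and the tools STAR, HISAT2, DESeq2 and StringTie; the sources used here give neither roles nor versions. The authors deposited 1 signal value (abundance) per transcript and day, under headers that name the 3 samples of that day. It is read here as their mean. Taken 3 times, each value has no digits past the 6th decimal. A mean of 3 numbers with 6 decimals would give this, and so would any value with 6 decimals. The depth is unknown. The p-value and adjusted p-value per transcript were deposited by the authors, and the sources used here do not name their test. The adjusted values match Benjamini-Hochberg values computed here over all 10162 transcripts, and the direction of each p was read from the 2 means. The circRNA table lists no host genes and was not used.

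Values were summed over the transcripts of a gene and the log2 ratio of day 12 over day 2 was taken with no pseudocount or filter (Python 3.11.15, pandas 2.3.3). Functions were tested on simulated data. A p of a gene is that of its most abundant transcript. Coordinates come from Ensembl release 115 of BDGP6, in which 7468 of 7490 annotated transcripts were found. The MCM genes and the lists were chosen with earlier results of these data known. Named were all MCM and ring loading genes, members of other lists with an unadjusted p under 0.05, the 2 most abundant of each list, and the 3 nearest genes; Psf1, Psf2 and Ts stand outside this rule and were named after their values were seen, as were the overlapping genes, which come from the annotation. Alternatives were another threshold, a minimum of 1, annotated transcripts only, the most abundant transcript, log2(value + 1), and scaling to equal totals or medians.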

Additional observations from a re-analysis of the deposited data

How the results depend on the processing

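The 6 ring subunits stayed lower and Mcm10 higher under each alternative run: all 41 recomputed log2 ratios kept their sign. Nearly all of them could not turn. With 1 listed and annotated transcript per gene the choice of transcript changes nothing, and log2(value + 1) keeps the sign. Both scalings lower every ratio, so only that of Mcm10 could have turned, under scaling. The median log2 ratio of the 7 genes was -0.22 with equal totals, -0.25 with a median of 0 over all transcripts (a shift of -0.05) and -0.21 for the ring alone, against -0.20. At an unadjusted p under 0.05, 1629 transcripts and 5 MCM genes passed in the authors' deposited table, against 18 and 0 at the adjusted threshold. With transcripts of a mean of at least 1, or annotated ones, 18 and 13 were called and no MCM gene. For the other replication genes the median was 0.0199 with the most abundant transcript and turned to -0.0131 with a median of 0 over all transcripts, where 41 were lower instead of 31; so did those of the clamp and fork list (-0.0102) and of nucleotide supply (-0.0114). With that scaling the medians of ORC, the ring loading genes and the polymerases were -0.117, 0.0814 and -0.126, against -0.0710, 0.127 and -0.0801. No paired analysis was possible because the table holds 1 mean per day, and for the same reason leaving out each replicate was not run. Small differences cannot be judged without depth or spread.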

Other observations

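Each MCM gene rests on 1 listed transcript, whereas 17 of the 75 other replication genes have several, and in some of these the transcripts diverged far more than the sum. RnrS, the small subunit of ribonucleotide reductase, summed to 431 at day 12 and 389 at day 2 over 7 transcripts. Its most abundant transcript was at 200 at day 12, against 31.5 at day 2. The authors' deposited table gave this transcript p = 0.0476 unadjusted. A transcript assembled by the authors was at 0.597 at day 12 and 111 at day 2. DNApol-epsilon255, the catalytic subunit of polymerase epsilon, had a sum of 22.9 at day 12, against 28.2 at day 2 (log2 ratio -0.30). Its annotated transcript was at 11.0 at day 12 and 27.0 at day 2, and an assembled one at 11.9 and 1.26. CycE, the cyclin partner of Cdk2, had 2 transcripts of similar levels on both days, at 50.1 and 30.4 at day 12 and at 53.4 and 30.2 at day 2. These genes were chosen after their values were seen, RnrS apart, and the sources used here do not say how reads were divided among overlapping transcripts.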
